A study of Rattus norvegicus with 119 samples.

Results

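Fcrl2 encodes an Fc receptor-like protein of the immunoglobulin superfamily, and it was 1 of the 14506 genes that had a probe set with exactly 1 gene symbol on the arrays. It was selected on its measured values: in Long Evans rats its level formed separate ranges, and those values are therefore given as a description, with no test. One probe set carried Fcrl2 as its only symbol. The study measured gene expression in the hippocampus of 40 Long Evans, 39 Sprague Dawley and 40 Fischer rats, with 1 array per animal. Each strain had males and females in 5 treatments: perinatal lead acetate at 250 ppm, perinatal at 750 ppm, postnatal at 250 ppm, postnatal at 750 ppm, and control food without lead. Perinatal animals were exposed through dams that ate lead food from 10 days before breeding until weaning, and postnatal animals had lead food from birth to day 45. All animals, controls included, were on control food when the tissue was taken on day 55. Each of the 30 groups held 4 animals, except the Sprague Dawley male controls, which held 3.

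Fc receptor-like genes are relatives of the receptors that bind the constant part of antibodies, and most members of the family act in B cells. In mouse, the gene named Fcrls, a name that the rat annotation lists as a synonym of Fcrl2, is used as a marker of microglia, the resident immune cells of the brain. Fischer is an inbred strain, while Long Evans and Sprague Dawley are outbred stocks.

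Values were log2 levels over 29214 probe sets, with array medians between 7.36 and 7.57. Precision was limited by the number of arrays per group. The labels name no litters, and p-values therefore measure only the spread between these animals. In hippocampal tissue, fewer cells of a type and less RNA per cell cannot be told apart. In 8 arrays the X-linked genes Eif2s3, Ddx3x and Pbdc1 had levels typical of the opposite sex to the label: 3 Long Evans controls and 5 Sprague Dawley arrays. Hippocampal neuron markers such as Camk2a and Grin1 were high in Long Evans, with a list mean between 11.62 and 11.76 in exposed arrays and between 11.65 and 11.75 in control arrays.

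In Long Evans rats, Fcrl2 lay either low or high, with an empty stretch between. The lower range held 15 arrays, between 6.06 and 6.66 (median 6.39), and the upper range held 25 arrays, between 7.06 and 7.98 (median 7.50). The gap between 6.66 and 7.06 was 0.40 log2 wide. All 15 arrays of the lower range came from exposed animals, and all 8 controls were in the upper range together with 17 exposed arrays. Of the 10 Long Evans groups, 3 lay wholly in the lower range, 5 wholly in the upper range and 2 were mixed.

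Among Long Evans males, the levels were 6.47, 6.15, 6.66 and 6.51 after perinatal lead at 250 ppm, and 7.06, 7.64, 7.36 and 7.45 after perinatal lead at 750 ppm. They were 7.38, 7.56, 7.49 and 7.55 after postnatal lead at 250 ppm, and 6.26, 6.26, 6.30 and 6.06 after postnatal lead at 750 ppm. Male controls had 7.74, 7.65, 7.68 and 7.63. The males at perinatal 250 ppm and at postnatal 750 ppm were thus all low, and every other male was in the upper range. Counted array by array, 15 of the 16 exposed males lay below all 4 male controls, also where the groups stayed in the upper range. X-linked genes went against the sex label in 3 Long Evans controls, among them the male at 7.63. Over both sexes, 20 of the 32 exposed arrays lay below all 8 controls and 1 lay above them.

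Among Long Evans females, the levels were 6.44, 7.50, 7.47 and 6.24 after perinatal lead at 250 ppm, and 7.98, 7.57, 7.50 and 7.61 after perinatal lead at 750 ppm. They were 6.20, 6.54, 6.48 and 6.60 after postnatal lead at 250 ppm, and 7.50, 6.39, 7.08 and 7.23 after postnatal lead at 750 ppm. Female controls had 7.38, 7.40, 7.72 and 7.66. The females at postnatal 250 ppm were all low, those at perinatal 250 ppm were split evenly between the ranges, and 1 of the 4 females at postnatal 750 ppm was low. Of the 16 exposed females, 9 lay below all female controls and 1 lay above them.

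**Figure D1:**
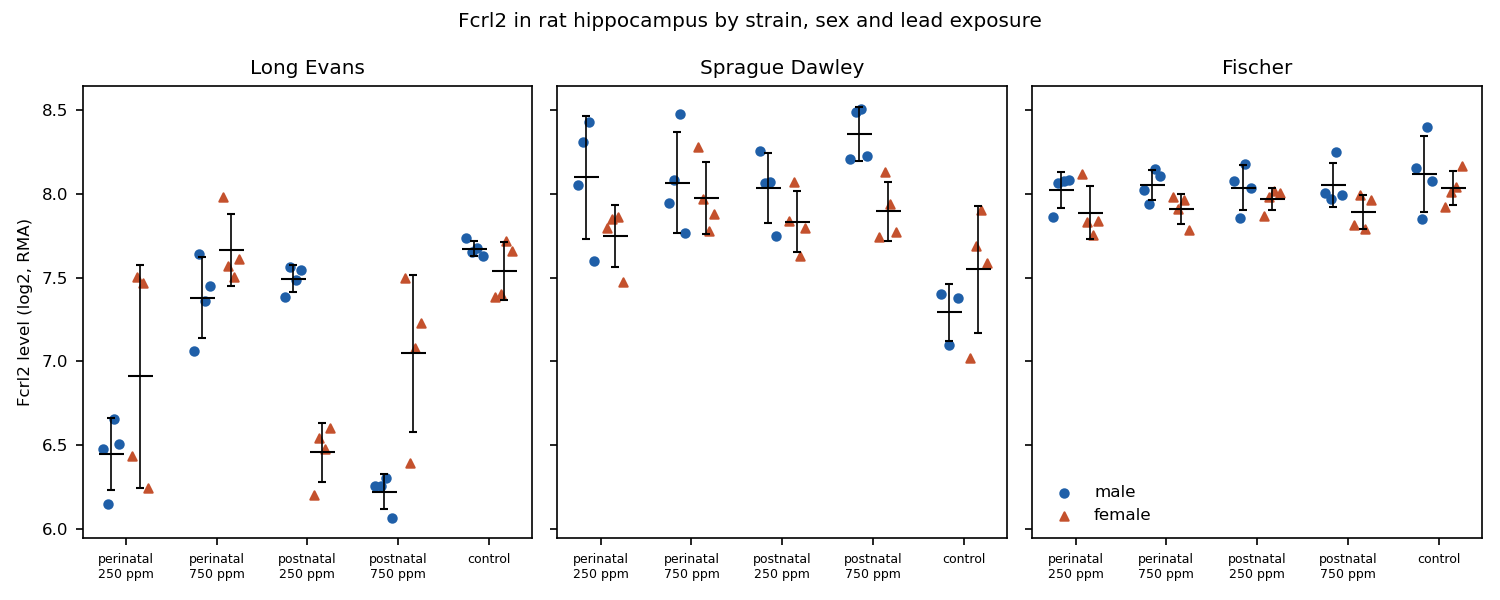
Fcrl2 level (log2, vertical axis) in each array by exposure (horizontal axis) in the 3 strains, with males as circles and females as triangles, and with horizontal marks and bars for the group mean ± SD (n = 4, or 3 in Sprague Dawley male controls). Long Evans arrays leave an empty stretch between 6.66 and 7.06, while Fischer arrays stay between 7.76 and 8.40.

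The sexes had similar shares in the lower range, with 8 of 20 males and 7 of 20 females. By treatment, the lower range held 6 of 8 arrays at perinatal 250 ppm, 0 of 8 at perinatal 750 ppm, 4 of 8 at postnatal 250 ppm, 5 of 8 at postnatal 750 ppm and 0 of 8 controls. The dose did not order the levels in the same way in every sex and period. The mean at 750 ppm was above that at 250 ppm by 0.93 in perinatal males, 0.76 in perinatal females and 0.59 in postnatal females, while in postnatal males the 750 ppm mean was lower, with a difference of -1.27 log2.

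The mean differences from controls in Long Evans restate these levels. They were -1.23, -0.29, -0.18 and -1.45 log2 in males (perinatal 250, perinatal 750, postnatal 250 and postnatal 750 ppm) and -0.63, 0.13, -1.08 and -0.49 in females, each with a limma SE of 0.20. The mean over the 8 exposed groups was 6.95, against 7.61 in controls, a difference of -0.65 ± 0.11 (SE). All 4 differences of a sex share the same control animals. For scale, limma called 62 of 29214 probe sets (0.212%) in the mean of the 8 Long Evans lead effects at an adjusted p under 0.05. That count was 15 without the 3 controls whose X-linked genes went against their sex label, 104 with array weights and 118 in 1 fit of all arrays. That contrast was used in the choice of Fcrl2, so nothing is read from its own place in it.

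The numbers in the animals' labels formed runs, parted here at jumps of more than 50, and the labels do not say what the numbers stand for. All 15 arrays of the lower range fell in 1 run of 24 arrays, numbered 2821 to 2876, which held 9 upper-range arrays as well. The run 1970 to 1981 held the 8 controls and the 4 females at perinatal 750 ppm, all in the upper range. The run 3444 to 3447 held the 4 males at perinatal 750 ppm, also in the upper range. The middle run held no control, so exposure and run of label numbers cannot be told apart for the 6 groups in it. Inside it, perinatal 250 ppm, postnatal 250 ppm and postnatal 750 ppm each had arrays in both ranges. The only Long Evans exposed group that shared a run with its controls was the perinatal 750 ppm females, at 0.13 ± 0.20 (SE) from them.

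**Figure D2:**
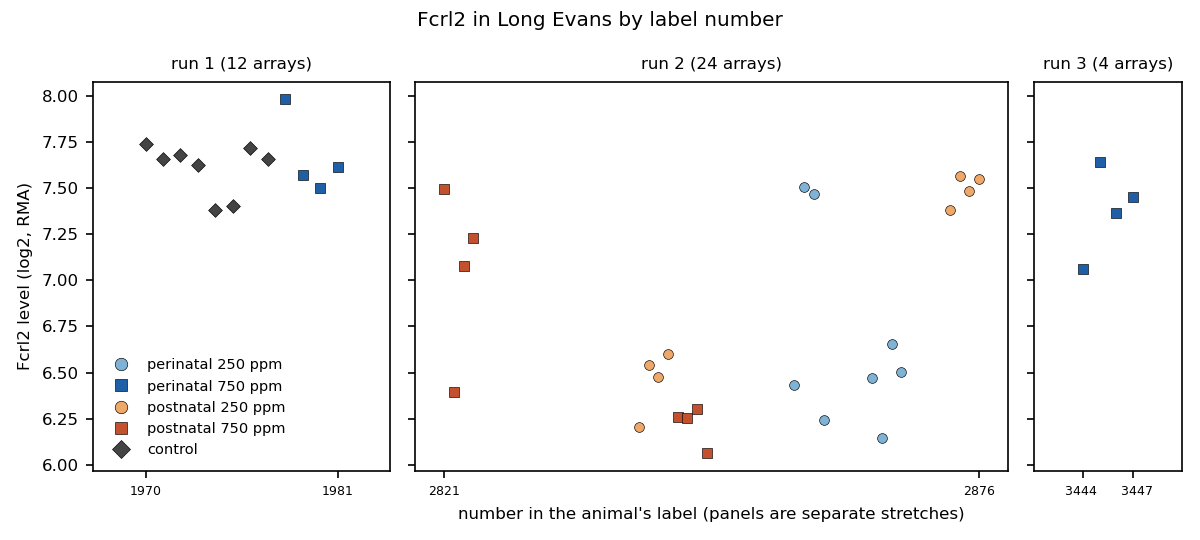
Fcrl2 level (log2, vertical axis) in Long Evans arrays against the number in the animal's label (horizontal axis, 3 separate stretches), with colour and shape for the exposure and diamonds for controls. The 15 low arrays stand in the run from 2821 to 2876, beside 9 arrays of the upper range.

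Within groups, lower and upper label numbers held 8 and 7 of the low arrays. The 3 Long Evans controls whose X-linked genes went against their sex label had Fcrl2 levels of 7.63, 7.38 and 7.72, while the other 5 controls lay between 7.40 and 7.74. The array at 7.38 was the lowest of the controls. Without them, the mean lead difference moved by less than the pooled within-group SD of 0.30.

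Few probe sets had such a gap in Long Evans. With at least 6 arrays on each side, 26 others of the 29214 had a gap of at least 0.40 log2, and 12 of these had a single gene symbol. They were Ttr, Clic6, Mfrp, Kl, Cldn2, Sostdc1, Slc4a5, Kcnj13 and F5, most of which are known from choroid plexus, the interferon-induced gene Mx2, and Pbld1 and Prps1. All 12 are named here for their gap, after their values were seen. Only Ttr, Clic6 and Kl were also in a gene list. None of them parted the arrays as Fcrl2 did. The closest was Prps1, a nucleotide synthesis enzyme on the X chromosome, which put 29 of 40 arrays on a matching side, with its sides reversed. For Ttr, the main transport protein made by choroid plexus, 5 of the 15 arrays below its gap were low for Fcrl2, and the match was 20 of 40.

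Sprague Dawley rats had no such gap, and there Fcrl2 was higher after lead. Levels lay between 7.02 and 8.51, and the widest gap with at least 6 arrays on each side was 0.09 log2, a width that 6.87% of probe sets reached. Among males, the levels were 8.05, 8.31, 8.43 and 7.60 after perinatal lead at 250 ppm, and 7.95, 8.08, 8.48 and 7.77 after perinatal lead at 750 ppm. They were 8.26, 8.06, 8.07 and 7.75 after postnatal lead at 250 ppm and 8.21, 8.49, 8.51 and 8.23 after postnatal lead at 750 ppm, against 7.40, 7.10 and 7.38 in male controls. All 16 exposed males lay above all 3 male controls.

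In the test over all probe sets (limma, Benjamini-Hochberg adjustment), Fcrl2 rose in Sprague Dawley males after postnatal lead at 750 ppm, by 1.07 ± 0.18 log2 (SE, 4 against 3 animals, adjusted p = 0.017). This result was known before the gene was chosen. Only 4 of 29214 probe sets (0.0137%) were called in that contrast. For males, perinatal lead gave differences of 0.81 (250 ppm, adjusted p = 0.16) and 0.78 (750 ppm, adjusted p = 0.37), and postnatal lead at the lower dose gave 0.74 (adjusted p = 0.67). Of all probe sets, 0.0274%, 0.0103% and 0.0137% were called in these contrasts. All 4 male differences rest on the same 3 control arrays. The postnatal 750 ppm call was lost without any 1 of those 3 controls, and also when exposed replicate 2 or 3 was omitted (adjusted p between 0.072 and 0.26), while the difference stayed between 0.97 and 1.12.

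In Sprague Dawley females no exposed group stood wholly apart from the controls, and whether the sexes responded differently was not tested. Levels were 7.80, 7.85, 7.86 and 7.47 after perinatal lead at 250 ppm, and 8.28, 7.97, 7.78 and 7.88 after perinatal lead at 750 ppm. They were 7.84, 8.07, 7.63 and 7.79 after postnatal lead at 250 ppm and 7.74, 8.13, 7.94 and 7.77 after postnatal lead at 750 ppm, against 7.02, 7.69, 7.90 and 7.59 in female controls. Of the 16 exposed females, 5 lay above all of the controls. The differences were 0.20, 0.43, 0.28 and 0.35 ± 0.17 (SE, in the same order), none of which passed the test (adjusted p of 0.99 and above, with 0% of probe sets called in each).

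Over the 8 exposed groups of Sprague Dawley, Fcrl2 averaged 8.002, against 7.42 in controls. It rose by 0.58 ± 0.10 log2 (SE, 32 against 7 animals, limma adjusted p = 0.020), where 5 of 29214 probe sets (0.0171%) were called. This call was lost without the 4 Sprague Dawley exposed arrays and the 1 control that went against their sex label (0.60, adjusted p = 0.052), and also without male control 1 or 2 or female control 1 or 4 (adjusted p between 0.052 and 0.32). The mean includes the male contrast at postnatal 750 ppm, which was known before the gene was chosen, and uses the same male controls. Its p-value is therefore no separate test. The run of label numbers that held the controls also held both 750 ppm groups of each sex, with differences of 0.78 and 1.07 in males and 0.43 and 0.35 in females. The 250 ppm groups stood in runs of their own, without controls. The 750 minus 250 ppm difference was 0.15 ± 0.08 (SE, adjusted p = 1, with 0.00342% of probe sets called), and the postnatal minus perinatal difference was 0.06 ± 0.08 (SE, adjusted p = 1, with 0.0411% called).

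**Figure D3:**
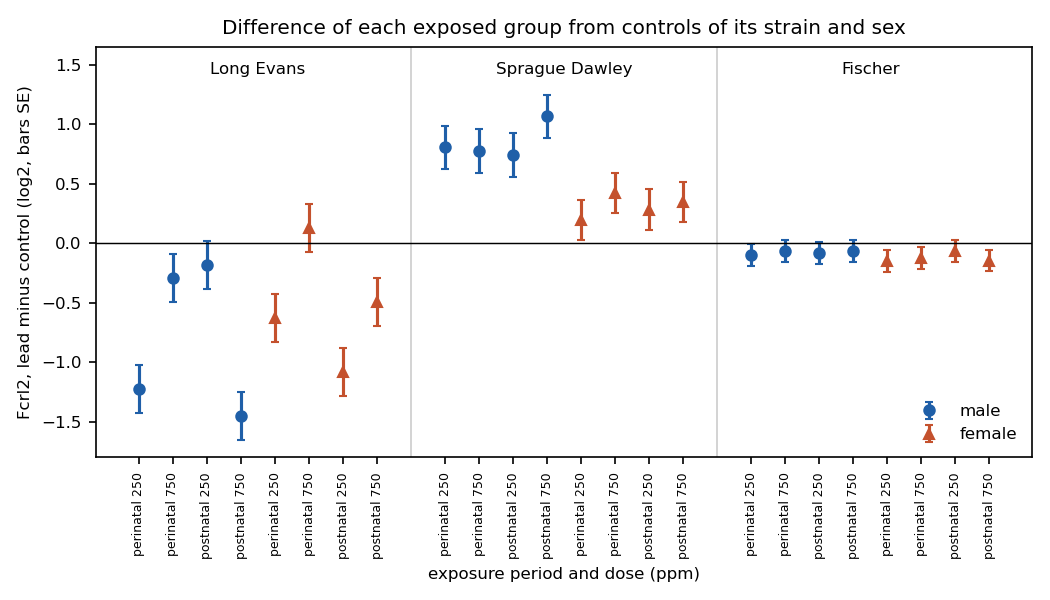
Difference in Fcrl2 level between each exposed group and the controls of its strain and sex (log2, vertical axis; bars are limma SE) by exposure period and dose. Sprague Dawley differences run from 0.20 to 1.07, Long Evans differences from -1.45 to 0.13, and Fischer differences from -0.15 to -0.06.

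Fischer rats had the least spread. Levels lay between 7.76 and 8.25 in the 32 exposed animals and between 7.85 and 8.40 in the 8 controls, and the widest gap was 0.04 log2, a width that 57.8% of probe sets reached. By group, males had 7.86 to 8.08 at perinatal 250 ppm, 7.94 to 8.15 at perinatal 750 ppm, 7.85 to 8.18 at postnatal 250 ppm and 7.97 to 8.25 at postnatal 750 ppm, against 8.16, 7.85, 8.40 and 8.08 in male controls. Females had 7.76 to 8.12, 7.79 to 7.98, 7.87 to 8.02 and 7.79 to 7.99 in the same order of exposures, against 7.92, 8.01, 8.04 and 8.17 in female controls. All groups overlapped their controls, although 8 of the 16 exposed females lay below all 4 female controls. None of the 16 exposed males lay below all male controls, and no exposed animal of either sex lay above all controls of its sex.

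The 8 Fischer differences were all below 0, between -0.15 and -0.06 with an SE of 0.09, and none passed the test (adjusted p of 1 throughout). Probe sets were called in 2 of these contrasts, at 0.00342% in females at perinatal 250 ppm and 0.0137% in males at postnatal 750 ppm, and at 0% in the others. Exposed animals averaged 7.98, against 8.08 in controls, a difference of -0.10 ± 0.05 (SE, adjusted p = 1, 0% called). Neither dose (-0.00 ± 0.05, SE, with 0.0719% called) nor period (0.02 ± 0.05, with 0.00342% called) gave a call for Fcrl2.

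Control animals of the strains differed at baseline. Fcrl2 averaged 7.42 in Sprague Dawley controls and 8.08 in Fischer controls over both sexes, a difference of -0.66 ± 0.12 log2 (SE, 7 against 8 animals, limma adjusted p = 3.7e-05). Many other genes differed too, with 3079 of 29214 probe sets (10.5%) called. The Sprague Dawley controls were numbered 3971 to 3978 and the Fischer controls 3219 to 3228. Strain and run of label numbers therefore cannot be told apart in this contrast. The 8 Long Evans controls lay between 7.38 and 7.74, which overlapped the Sprague Dawley controls (7.02 to 7.90) and lay below 7.85, the lowest Fischer control.

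The sex difference of Fcrl2 did not pass the test in Sprague Dawley or in Fischer. In Sprague Dawley, males averaged 7.97 and females 7.80 (0.17 ± 0.08, adjusted p = 0.52, with 0.0171% called). In Fischer, males averaged 8.06 and females 7.94 (0.12 ± 0.04, adjusted p = 0.52, with 0.0822% called). In Long Evans, the levels were used in choosing the gene, and no p-value of Fcrl2 is read from them. There, males averaged 7.04 and females 7.12 (difference -0.08 ± 0.09, SE), and 0.0856% of probe sets were called between the sexes.

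Ordered by mean over the 30 groups, Fcrl2 was highest in Sprague Dawley males at postnatal 750 ppm (8.36) and Fischer male controls (8.12), and lowest in Long Evans males at postnatal 750 ppm (6.22), males at perinatal 250 ppm (6.45) and females at postnatal 250 ppm (6.46). Every group overlapped its neighbours in that order. The Sprague Dawley male controls (7.29) ranked 25, below all 5 Long Evans groups that lay wholly in the upper range. The highest and the lowest mean both belonged to males at postnatal 750 ppm, and the Long Evans group of these stood in the run of label numbers without controls, where exposure and run cannot be told apart.

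No gene followed the Long Evans ranges closely. Over the 40 Long Evans arrays, the largest absolute correlation of any other probe set with Fcrl2 was 0.66, and 4 of 29213 reached 0.6. The 10 genes chosen for the largest absolute r were Akr7a3, an aldo-keto reductase (-0.66), Sprn, a prion-related membrane protein (0.62), Klk6, a serine protease of oligodendrocytes (-0.61), Gsn, the actin-severing protein gelsolin (-0.60), Ldaf1, a lipid droplet assembly factor (-0.58), Litaf, an endosomal membrane protein (-0.58), Plpp2, a lipid phosphatase (-0.58), Serinc5, a serine incorporator (-0.57), Fa2h, a fatty acid hydroxylase of myelin lipids (-0.56), and Chaf1b, a chromatin assembly subunit (-0.56). All but Sprn ran opposite to Fcrl2. As the arrays fall into separate ranges, r was also taken within each. For Akr7a3 it was -0.49 within the 15 low arrays and -0.34 within the 25 high arrays, and for Sprn it was -0.10 and 0.13.

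The level of Akr7a3 in Long Evans ran from 7.55 to 8.18 (median 7.96) in exposed arrays and from 7.40 to 7.94 (median 7.70) in controls. Its 15 highest arrays included 11 of the 15 that were low for Fcrl2, and its values had no break, with a widest gap of 0.05. Sprn ran from 10.81 to 11.63 (median 11.17) in exposed arrays and from 11.15 to 11.60 (median 11.30) in controls. No probe set matched the lower range better than Klk6, whose 15 highest arrays included 12 of the 15 low arrays, and Sprn, whose 15 lowest included 12. The median over all probe sets was 7 for the better of the highest or lowest 15.

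Several of these genes also had different levels in exposed and control Long Evans animals, as Fcrl2 did, and the part of that step in the likeness was not tested. Ldaf1 lay between 8.59 and 9.73 in exposed arrays and between 8.28 and 8.63 in controls, with 31 of 32 exposed arrays above all controls. Within the run of 24 exposed arrays that held the whole lower range, its r with Fcrl2 was -0.38. There r was -0.56 for Litaf, 0.52 for Sprn and -0.50 for Akr7a3. After the group means were subtracted, other genes led: Htr3a, a serotonin-gated channel subunit (r = 0.67), Csap1 (-0.67), Gabre, a GABA-A receptor subunit (-0.63), Uhrf2, a ubiquitin ligase (0.61), and Chst11, a chondroitin sulfotransferase (0.61). After that step, 83 of 29213 probe sets reached an absolute r of 0.5. Fcrl2 spread most in the mixed groups, the females at perinatal 250 ppm (SD 0.67) and postnatal 750 ppm (SD 0.47). Within the lower and the upper range, r was -0.24 and -0.09 for Htr3a and -0.22 and 0.16 for Csap1. It was -0.40 and -0.23 for Gabre, 0.16 and 0.17 for Uhrf2, and 0.12 and 0.20 for Chst11.

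**Figure D4:**
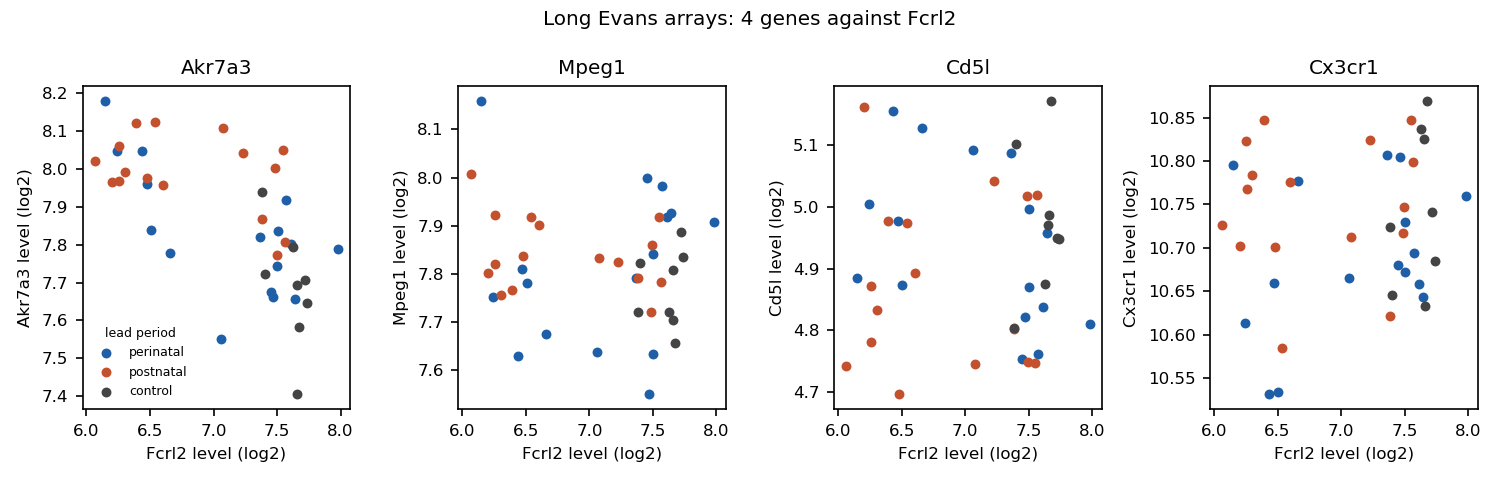
Levels of Akr7a3, Mpeg1, Cd5l and Cx3cr1 (log2, vertical axes) against Fcrl2 (log2, horizontal axes) in the 40 Long Evans arrays, coloured by exposure period or control. Akr7a3 was lower where Fcrl2 was higher (r = -0.66). The microglial genes Mpeg1 (-0.13) and Cx3cr1 (0.13) and the neighbouring gene Cd5l (-0.03) showed no such pattern over all 40 arrays. Within the lower and the upper range, the r of Mpeg1 was -0.47 and 0.25.

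In the other strains, the r of these 10 genes with Fcrl2 ran from -0.20 to 0.35 in Sprague Dawley and from -0.37 to 0.41 in Fischer. It had the sign seen in Long Evans for 2 of the 10 in Sprague Dawley and for 4 in Fischer, and for 6 in each strain after the group means were subtracted. In Fischer, Sprn (0.41), Ldaf1 (-0.37), Plpp2 (-0.23) and Chaf1b (-0.12) had the Long Evans sign, while Klk6 (0.37) and Akr7a3 (0.22) were among those with the opposite sign. In Sprague Dawley, the genes with the Long Evans sign were Chaf1b (-0.20) and Sprn (0.01). A slope on the Fcrl2 level within groups, fitted with limma to the other 29213 probe sets, gave 0 calls in Sprague Dawley and 0 in Fischer (0% each, with 544 and 4902 at an unadjusted p under 0.05). None of the 10 genes was called in either strain. The Fischer count depended on the scaling: after further quantile normalization 6107 of the 29213 probe sets were called there, while Sprague Dawley stayed at 0. Of the 10 genes, Ldaf1 alone was called in Fischer then. That is no more than the share over all probe sets, and nothing is read from it. In Sprague Dawley, the genes of largest absolute r after the group means were subtracted were Henmt1, an RNA methyltransferase (0.62), Tnpo2, a nuclear import receptor (0.57), Mme, the peptidase neprilysin (0.56), Mdm1 (-0.55) and Or2ag2b, an olfactory receptor (-0.55). In Long Evans, these had r between 0.01 and 0.17 with Fcrl2.

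Genes beside Fcrl2 on chromosome 2 had no gap like its own in Long Evans. Of the 10 nearest genes with a probe set on each side in the GRCr8 annotation, r in Long Evans ran from -0.38 for the kinase gene Dclk2 to 0.29 for Prcc. Next to Dclk2 at the low end were Rps3a (-0.36) and Lrba (-0.31). The median r was -0.03 over the neighbours and 0.02 over all probe sets. The closest on one side was Kirrel1 (r = -0.05), a cell adhesion gene, followed by Cd1d1 (0.25), which presents lipid antigens. On the other side came Cd5l (-0.03), a macrophage-secreted protein, and the transcription factor gene Etv3 (-0.03). The others were Mab21l2, Dear, Tmem154, Arfip1, Fhdc1, Etv3l, Arhgef11, Lrrc71, Pear1, Insrr, Sh2d2a and Hdgf. None of the 20 had a gap wider than 0.08 log2, and 0 were called in the mean Long Evans lead effect, where 0.212% of all probe sets were. Of all probe sets, 0.0924% had a gap at least as wide as that of Fcrl2. Both shares are too low for a count of 0 among 20 genes to say anything of them. Of the 10 genes most like Fcrl2, Serinc5 was the only one on its chromosome, with 1562 annotated genes between them.

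Of the other 7 Fc receptor-like genes listed, Fcrla was measured here, with r = 0.14 and levels between 5.89 and 6.69 in Long Evans. Of 13 Fc receptor genes, 9 were measured. Their r ran from -0.31 for the neonatal Fc receptor Fcgrt to 0.20 for the activating receptor Fcgr3a. The inhibitory receptor Fcgr2b had -0.30, Fcgr1a -0.22, Pigr -0.12, Fcer2 0.09, Fcer1a 0.15, the shared signalling chain Fcer1g 0.18 and Fcmr 0.19. The number called among these 10 measured genes was 0 in the mean lead effect of each strain, where 0.212% of all probe sets were called in Long Evans, 0.0171% in Sprague Dawley and 0% in Fischer, shares too low for a count of 0 to say anything of the genes. The 10 measured genes of immunoreceptor signalling had r between -0.11 for the kinase Syk and 0.22 for the adaptor Blnk, with the phosphatase Inpp5d at -0.10, and 0 were called.

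Over all 40 Long Evans arrays, microglial markers had no common direction with Fcrl2. Of 24 listed, 22 were measured, and their r with Fcrl2 in Long Evans ran from -0.37 to 0.24 with a median of -0.00, against a median of 0.02 over all probe sets. The furthest were the protease Ctss (-0.37), the complement gene C1qa (-0.30) and the growth factor receptor Csf1r (-0.28). These values are over all 40 arrays. Within the 15 arrays of the lower range, r was below 0 for most of the list and ran from -0.62 for Csf1r to 0.03 for Cd53. Within the 25 arrays of the upper range, r was above 0 for most of the list. There it ran from -0.23 for C1qa to 0.43 for Gpr34. The same values over all probe sets are not given here, and the turn of sign was not tested. The list mean per array lay between 8.48 and 8.72 in exposed Long Evans animals and between 8.49 and 8.71 in controls, and its r with Fcrl2 was -0.04. In the mean lead effect the median over the list was 0.02, and 0 of the 22 were called beside 0.212% of all probe sets, from which nothing is read. In Sprague Dawley, 20 of the 22 had a positive r with Fcrl2, with a median of 0.23 beside -0.02 over all probe sets, and the r of the list mean was 0.42. These values hold differences between groups: after the group means were subtracted, 17 of the 22 were positive, with a median of 0.10 beside -0.01 over all probe sets, and the r of the list mean was 0.23. For the microglial receptor P2ry12, r was 0.43 before and -0.02 after that step. No member was called there (0.0171% of all probe sets were), with a median lead effect of 0.05 over the list beside -0.00 over all probe sets. With array weights the microglial surface genes Selplg (-0.22 log2, adjusted p = 0.013) and Tmem119 (-0.21, adjusted p = 0.033) were called as lower in exposed Sprague Dawley animals. In that fit 10 of all 29214 probe sets were called. With equal weights neither gene passed (limma adjusted p = 0.11 for Selplg and 0.55 for Tmem119). Their direction was opposite to that of the list median.

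**Figure D5:**
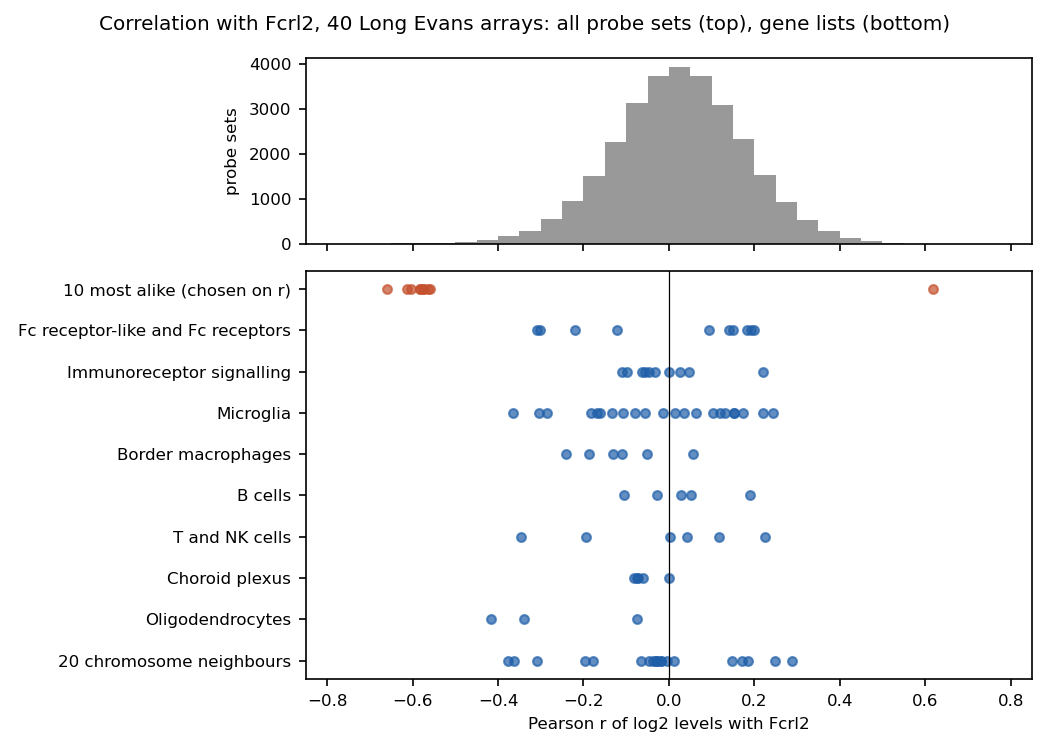
Pearson r with Fcrl2 over the 40 Long Evans arrays (horizontal axis) for all 29213 other probe sets (top, number per bin) and for gene lists (bottom, 1 point per probe set). The 10 genes chosen on r stand between 0.56 and 0.66 in absolute value, while the microglial list stays between -0.37 and 0.24.

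For markers of other cells that a hippocampal dissection could hold, r is also given over all 40 Long Evans arrays. The largest absolute r per list belonged to Ms4a7 (-0.24), Pf4 (-0.19) and Cd163 (-0.13) among border macrophage genes, Cr2 (0.19), Cd79b (-0.10) and Ms4a1 (0.05) among B cell genes, and Nkg7 (-0.35), Cd8a (0.22) and Cd3e (-0.19) among T and NK cell genes. Neutrophil genes S100a8 and S100a9 had -0.26 and 0.22. The 5 measured choroid plexus genes had r between -0.08 and 0.00, although their list mean ran from 6.89 to 10.98 in exposed arrays and from 6.98 to 10.75 in controls. Red blood cell genes had r between -0.18 and -0.08, endothelial genes between -0.14 and 0.21, neuronal genes between -0.17 and 0.04, and astrocyte genes between -0.20 and 0.20.

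Of the fixed cell marker lists, the oligodendrocyte genes held the largest absolute r in Long Evans. Mog, a protein of the outer myelin surface, had r = -0.42 with Fcrl2, and 2 probe sets of the myelin gene Mbp had -0.34 and -0.08. Mog was the only listed gene called in a mean lead effect when each strain was fitted on its own, with all its arrays, the deposited values and equal array weights. In Long Evans it lay between 11.59 and 12.21 (median 11.86) in exposed arrays and between 11.41 and 11.88 (median 11.60) in controls. It was higher in exposed animals by 0.26 ± 0.06 log2 (SE, 32 against 8 animals, limma adjusted p = 0.045), where 0.212% of all probe sets were called. The run of label numbers that held all 8 controls held 4 exposed arrays. The other exposed arrays stood in runs without controls, where exposure and run cannot be told apart. The call rested on single arrays: it was lost without the 3 controls whose X-linked genes went against their sex label (0.31, adjusted p = 0.086) and in 21 of the 40 fits that left out 1 animal, where the difference ran from 0.21 to 0.29 and the adjusted p from 0.021 to 0.18. Within the low and the high range of Fcrl2, the r of Mog was -0.05 and -0.18. Whether the oligodendrocyte genes have a part in the Fcrl2 ranges was not tested.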

How the data were processed

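Hippocampal RNA was measured on 1-colour Affymetrix arrays. The authors deposited 1 log2 intensity for each probe set and array. The submitters' processing notes name RMA and Partek, and versions and any batch correction are not given in the sources used here. Genes were named from the platform's probe-gene table, and order on chromosomes came from the GRCr8 annotation, to which 15279 of 15310 probe sets with 1 symbol were matched. Groups were read from the labels. Fcrl2, the gene lists and the tests were chosen with earlier results of these data known. Named genes were the 10 of largest absolute r with Fcrl2 in Long Evans, the 5 after subtracting group means in Long Evans and in Sprague Dawley, 10 neighbours on each side, all Fc receptor family members, and of the other lists the 3 of largest absolute r and any called. Genes with a Long Evans gap at least as wide as that of Fcrl2 were added after their values were seen.

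Group means and slopes were fitted per strain with limma 3.58.1 in R 4.3.3, two-sided, with Benjamini-Hochberg adjustment over all 29214 probe sets and a threshold of 0.05. Strain controls were compared in 1 fit. The fits were tested on simulated data. Correlations are descriptions over arrays that share group and run. Alternatives were 1 fit of all arrays, array weights, a further quantile normalization, a filter at the 40th percentile of mean level, label numbers as a block, and arrays left out. Tables and figures used Python 3.11.15, pandas 2.3.3 and matplotlib 3.10.9.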

Additional observations from a re-analysis of the deposited data

Results flagged for a closer look

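Opposite lead differences of Fcrl2 were flagged in males of the outbred stocks. After perinatal lead at 250 ppm, all 4 exposed males lay below all male controls in Long Evans (-1.23 log2). In Sprague Dawley all 4 lay above all male controls (0.81). The same held for postnatal lead at 250 ppm (-0.18 in Long Evans, 0.74 in Sprague Dawley). It also held for postnatal lead at 750 ppm (-1.45 in Long Evans, 1.07 in Sprague Dawley). Each Long Evans difference had a limma SE of 0.20, which was larger than the difference at postnatal 250 ppm. The difference between the strains was not tested, and the share of all probe sets that part the arrays likewise was not taken. The Long Evans levels were used in choosing the gene, and these Long Evans groups shared no run of label numbers with their controls. Nor did the Sprague Dawley males at perinatal 250 ppm and at postnatal 250 ppm. In all these groups exposure and run cannot be told apart.

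In 3 of the 29 groups with 4 animals, 1 array stood far from the other members of its group. These were the lowest Fischer male at perinatal 250 ppm (7.86), the highest Fischer male at postnatal 750 ppm (8.25) and the lowest Sprague Dawley female at perinatal 250 ppm (7.47). Chance gives such an array in about 1 of 20 groups.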

How the results depend on the processing

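The Fischer mean lead difference of Fcrl2 kept its direction and its side of the threshold over all settings of the processing section. So did the sex differences in Sprague Dawley and Fischer and the Sprague Dawley minus Fischer difference, for which array weights were not run, nor a change of the arrays that share a fit. The Sprague Dawley mean lead effect (0.58) kept its direction throughout and lost its call without the arrays against their sex label (0.60, adjusted p = 0.052). With 1 animal left out at a time, it ranged from 0.49 to 0.64, with the call lost for 4 of 39 animals. Leaving out 1 animal gave -0.15 to -0.05 for the Fischer mean, -0.68 to -0.62 for Long Evans and -0.72 to -0.57 for Sprague Dawley minus Fischer. It gave sex differences of 0.10 to 0.14 in Fischer, -0.13 to -0.04 in Long Evans and 0.13 to 0.20 in Sprague Dawley. Sprague Dawley males at perinatal 250 ppm passed the threshold with array weights (0.84, adjusted p = 0.026), in 1 fit of all arrays (0.81, adjusted p = 0.044) and without replicate 4 of that group (0.97, adjusted p = 0.041). Males at postnatal 750 ppm lost their call without the arrays against their sex label (1.02, adjusted p = 0.13). For the gene lists, alternatives were chosen after seeing the data: called members were 1 in Long Evans (Mog), 0 without the arrays against their sex label and 0 to 1 without 1 animal. In Sprague Dawley they were 0, with 2 under array weights, 1 in 1 fit of all arrays and 0 to 1 without 1 animal, and in Fischer 0 throughout. Over all probe sets, that Sprague Dawley effect had 10 calls with array weights and 8 in 1 fit of all arrays. Mog lost its call without the arrays against their sex label (0.31, adjusted p = 0.086). The 62 calls of the Long Evans mean lead effect became 25 to 75 without 1 animal. Of the 10 genes most like Fcrl2, 9 stayed after further quantile normalization and 7 when arrays against their sex label were omitted, while 3 stayed with Spearman's rho, 2 in lower and 2 in upper label numbers, and 0 with group means subtracted, within the lower range, within the upper range, or, chosen after seeing the data, within the run that held the lower range. Without 1 animal, 6 to 10 stayed. Slopes on Fcrl2 in Fischer gave 6107 calls of 29213 probe sets after further quantile normalization, and 0 with the deposited values. Among the 10 genes 1 was called (Ldaf1), no more than the share over all probe sets. The cause was not tested. No paired analysis was possible because the labels give no shared replicate numbers. Every group rests on 4 arrays or fewer, and most Long Evans exposed groups share no run of label numbers with their controls.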
